A study of Mus musculus with 6 samples.

Results

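Oligodendrocytes, the cells that wrap axons of the central nervous system in myelin, were described here in the hypothalamus of 4 mice given the R50E mutant of fibroblast growth factor 1 (FGF1). They were the cells that the study's deposited annotation labels as oligodendrocytes in the libraries of mice 3, 4, 30 and 34, and there were 4566 of them among 20151 cells in all. Mouse 3 gave 1668 oligodendrocytes, mouse 4 gave 865, mouse 30 gave 473 and mouse 34 gave 1560. All mice were male ob/ob animals of 11 weeks, a strain without functional leptin that is obese and diabetic, housed singly with free access to chow. Each had received 3 µg of FGF1 R50E into a cerebral ventricle (icv) and was euthanized on day 5. FGF1 R50E binds FGF receptors but is impaired in its binding to integrins. The labels name 6 such mice, and 2 of them, mice 12 and 37, have no cells in the table used and were not analysed here. All 4 libraries belong to 1 treatment group, so the data give no effect of the treatment, and each library is 1 mouse.

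Oligodendrocytes arise from oligodendrocyte precursor cells (OPC), which divide, move and carry the receptor Pdgfra, and pass through a short stage of committed precursors (COP), marked by the receptor Gpr17, before they make myelin. Myelin is a stack of membrane rich in cholesterol and galactolipids, held together by proteins such as myelin basic protein (Mbp). Mature cells also take up iron, pass metabolites to the axon and buffer potassium through gap junctions with astrocytes. FGF receptor signalling through the kinases MEK and ERK is known to act on the division of OPC and on the thickness of the myelin that oligodendrocytes make.

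Counts were of unique molecular identifiers (UMIs), that is, of single captured transcripts, and they were summed over the cells of a type in each mouse and expressed as CPM, that is, relative to a sum scaled to 1000000 UMIs. The sums of oligodendrocytes held 486049 to 2319177 UMIs per mouse. The label fitted its markers: 5 oligodendrocyte markers (Mbp, Mog, Mag, Mobp and Cldn11) summed to between 13679.7 and 19821 CPM in oligodendrocytes, against 10151 to 13025 CPM in COP and 2225 to 4101 CPM in astrocytes. The OPC markers summed to 21.7 to 64.4 CPM and the microglial markers to 80.2 to 125 CPM in oligodendrocytes. All 6 astrocyte markers were present in their sums, at 1165 to 1601 CPM, against 9456 to 10004 CPM in astrocytes. The 8 neuronal markers summed to 246 to 516 CPM, and the 4 haemoglobin genes to 92.8 to 154 CPM in mice 3, 4 and 34 and to 551 CPM in mouse 30. Of the 4566 oligodendrocytes, 94 carried a barcode that also occurred in another mouse, and 12 barcodes were shared by oligodendrocytes of a pair of mice. The part of other cells' RNA in the values below was not tested.

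The yield of oligodendrocytes differed between the mice. They made up 22.6%, 27.2%, 15.7% and 23.7% of all cells in mice 3, 4, 30 and 34, a mean of 22.3% ± 4.80 (SD, n = 4). Within the lineage, that is, among OPC, COP and oligodendrocytes, they made up 73.7% (exact binomial 95% interval 71.9 to 75.5) in mouse 3, 66.4% (63.7 to 68.9) in mouse 4, 52.5% (49.2 to 55.8) in mouse 30 and 76.4% (74.5 to 78.2) in mouse 34. Mouse 30 was the lowest on both measures, and its interval within the lineage did not meet that of any other mouse. For each OPC there were 4.32, 3.57, 1.77 and 4.26 oligodendrocytes, and for each COP there were 8.02, 4.41, 2.94 and 13.4. The intervals cover counting error only, and dissociation can favour some cell types over others, which was not tested.

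Single oligodendrocytes held fewer UMIs than COP. The median number of UMIs per oligodendrocyte was 1304.5, 948, 894 and 1089 in mice 3, 4, 30 and 34, a mean of 1059 ± 183 (SD, n = 4), and the mean for COP was 1761. The mean difference of -702.5 UMIs had the same sign in 4 of 4 mice. Its size was uneven, since the COP medians were 2402.5, 1219.5, 1081 and 2342.5 in the same order, so it was larger in mice 3 and 34. Against OPC, with a mean of 957.6 UMIs, oligodendrocytes were higher by 101 UMIs, in 3 of 4 mice. The share of UMIs from mitochondrial genes was 14.05% in oligodendrocytes, above the 8.35% of COP and the 12.5% of OPC, in 4 of 4 mice for each. The median number of genes per cell differed by -392 from that of COP, and the doublet score was higher by 0.0208 than in OPC, again in 4 of 4 mice. With 4 mice, an exact two-sided permutation test that flips signs over mice cannot give a p below 0.125, and it gave 0.125 for each of these differences that held in 4 of 4 mice (0.208 after adjustment over the 10 tests of this family). The 10 tests covered 5 per-cell measures against COP and OPC, and in 6 of them all mice had the same direction.

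Transcripts of myelin genes were abundant. Mbp, which joins the inner faces of the membrane, was at 9360.2, 6122, 5454 and 7224 CPM in mice 3, 4, 30 and 34. All further series of 4 values are in this order of mice. Of the list of myelin structure genes, those next below Mbp were Cldn11, the claudin of the tight junctions of myelin, at 3439 ± 391 CPM (SD, n = 4, as for all CPM means), Mobp at 3286 ± 333, Cnp at 3169 ± 289 and Mal, a proteolipid of lipid rafts, at 2956 ± 292. The SD of these 4 genes was small against their means, whereas Mbp was higher in mouse 3 than in the other mice.

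**Figure D1:**
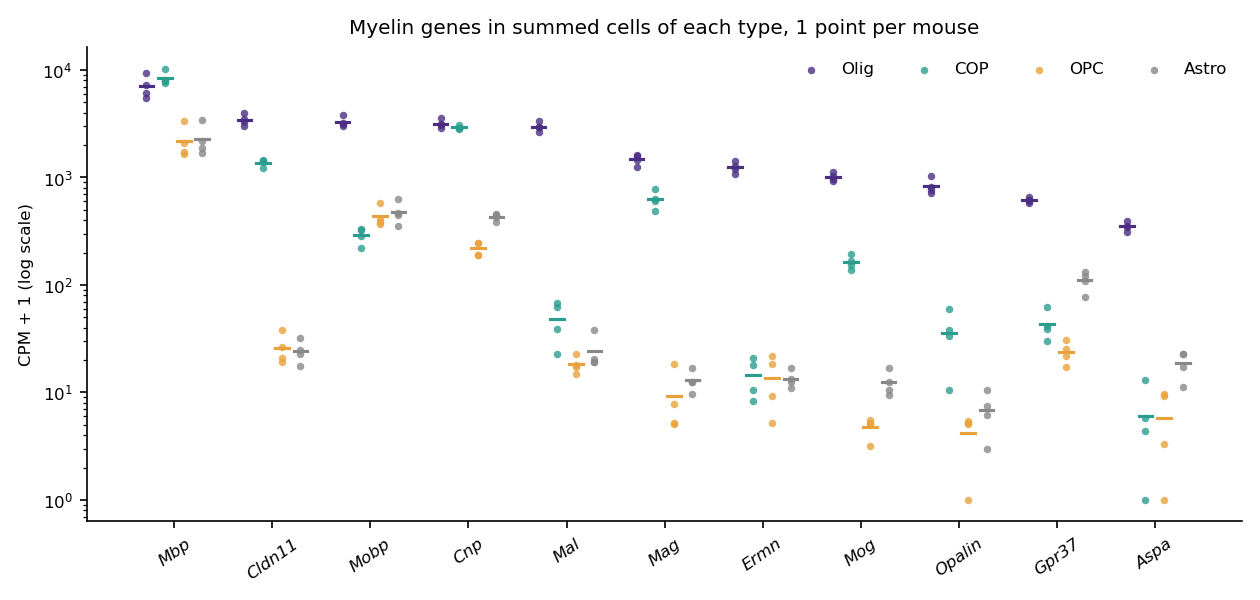
Myelin genes (and Aspa, of lipid synthesis) in the summed cells of oligodendrocytes (Olig), committed precursors (COP), precursor cells (OPC) and astrocytes (Astro), as CPM + 1 on a log axis. Each point is 1 of 4 mice and each bar is their mean. Mbp and Cnp lie near each other in oligodendrocytes and COP, while Mal, Ermn, Opalin, Gpr37 and Aspa lie far lower in COP than in oligodendrocytes.

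Genes of myelin structure differed in the labelled stage of the lineage at which their transcripts were high. The log2 fold changes below, each with its SE from a fit to the sums of 4 mice, compare oligodendrocytes with COP, with OPC, or with other types. The last is the mean of the other 7 cell types that had at least 20 cells in every mouse (astrocytes, COP, OPC, tanycytes, ependymal cells, endothelial cells and microglia). A gene was called at an adjusted p below 0.05 (edgeR quasi-likelihood test with Benjamini-Hochberg adjustment) and a log2 fold change beyond 1 in either direction. Because cell type labels of this kind are made from expression, these calls describe the labelled types and are no test of a difference. Against COP, 10 of 16 myelin structure genes were higher, with a median log2 fold change of 1.63, where 13.8% of all 6209 tested genes were higher, 13.3% were lower and 27.1% were called in all, and the median of all genes was 0.01. Against OPC, 15 of 16 were higher, with a median of 4.72, beside 12.8% of all genes higher, 15.2% lower and 28% called. Against the mean of the other types, 16 of 16 were higher, with a median of 4.58, beside 11.1% higher, 12.1% lower and 23.2% called. Since such labels are made from such genes, nothing is read from these counts.

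Genes that were already close to their oligodendrocyte level in COP were Mbp (log2 fold change -0.02 ± 0.08, 7040.2 ± 1710.2 CPM in oligodendrocytes and 8501 in COP) and Cnp (0.38 ± 0.08). Mag, the adhesion molecule of the membrane next to the axon, lay between, at 1.51 ± 0.09 against COP and 7.68 ± 0.17 against OPC. The far end was formed by Ermn, a cytoskeletal protein of mature cells, at 6.69 ± 0.17, by Mal at 6.18 ± 0.14 and by Opalin, a membrane protein of oligodendrocytes, at 4.74 ± 0.15 against COP, in 4 of 4 mice each. The receptor Gpr37 was at 4.15 ± 0.15, Mog, a protein of the outer surface of myelin, at 2.95 ± 0.11 and the tetraspanin Tspan2 at 2.69 ± 0.10. Opalin was at 1034, 766, 718 and 819 CPM in the oligodendrocytes of the 4 mice and Mog at 1126, 1041, 922 and 970.1, and neither overlapped with its COP values, which had a mean of 34.4 CPM for Opalin and 162 for Mog.

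The promoters of these genes are shown because the transcripts of Opalin and Mog separate oligodendrocytes from OPC by the log2 fold changes of 8.50 and 8.45, where Opalin had 4 UMIs and Mog 5 UMIs in all OPC. Promoter windows of 300 bases, from 250 before the start of the gene to 50 after it, were taken from RefSeq (GRCm38.p6), and 13 of the 16 genes of myelin structure had one that could be used. They were searched for CTGGCAC and CTGGTAC, on both strands, the letters bound by the myelin regulatory factor Myrf. A window with these letters was found for 4 of the 13 genes, Opalin, Mog, Mag and Cnp, while 8.10% of 27025 genes and 7.096% of all 32851 windows of the same length have them. The match is given in capitals, as it reads on the strand of the gene.
Opalin, chr19:41077064-41077363, minus strand: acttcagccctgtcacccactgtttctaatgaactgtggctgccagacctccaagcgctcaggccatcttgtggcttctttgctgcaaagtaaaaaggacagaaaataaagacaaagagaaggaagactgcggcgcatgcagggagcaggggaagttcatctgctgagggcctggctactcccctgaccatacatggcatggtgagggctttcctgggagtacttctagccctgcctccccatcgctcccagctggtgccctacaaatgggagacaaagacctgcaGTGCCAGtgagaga
Mog, chr17:37023349-37023648, minus strand: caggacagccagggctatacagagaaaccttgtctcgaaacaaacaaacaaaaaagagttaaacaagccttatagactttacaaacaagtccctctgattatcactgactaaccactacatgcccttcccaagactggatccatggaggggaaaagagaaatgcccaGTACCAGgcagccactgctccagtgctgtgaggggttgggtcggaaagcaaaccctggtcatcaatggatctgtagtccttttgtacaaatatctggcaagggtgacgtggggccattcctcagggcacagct
Mag, chr7:30914814-30915113, minus strand: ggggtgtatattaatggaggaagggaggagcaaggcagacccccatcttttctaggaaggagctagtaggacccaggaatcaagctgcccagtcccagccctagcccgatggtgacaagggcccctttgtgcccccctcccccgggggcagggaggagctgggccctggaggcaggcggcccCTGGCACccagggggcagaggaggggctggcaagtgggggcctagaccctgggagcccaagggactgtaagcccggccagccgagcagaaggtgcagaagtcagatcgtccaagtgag
Cnp, chr11:100574689-100574988, plus strand: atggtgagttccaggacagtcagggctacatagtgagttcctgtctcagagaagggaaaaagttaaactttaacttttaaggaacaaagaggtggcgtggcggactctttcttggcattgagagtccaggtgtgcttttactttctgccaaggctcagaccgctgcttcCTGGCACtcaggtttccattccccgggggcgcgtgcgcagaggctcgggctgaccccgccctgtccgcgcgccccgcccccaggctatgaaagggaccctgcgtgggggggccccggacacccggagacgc
A match is a description of these letters and not a binding site, and no match says only that the letters are not in the window.

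Across the other gene groups, oligodendrocytes and COP differed in both directions, as the plot of fold changes by gene group shows.

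**Figure D2:**
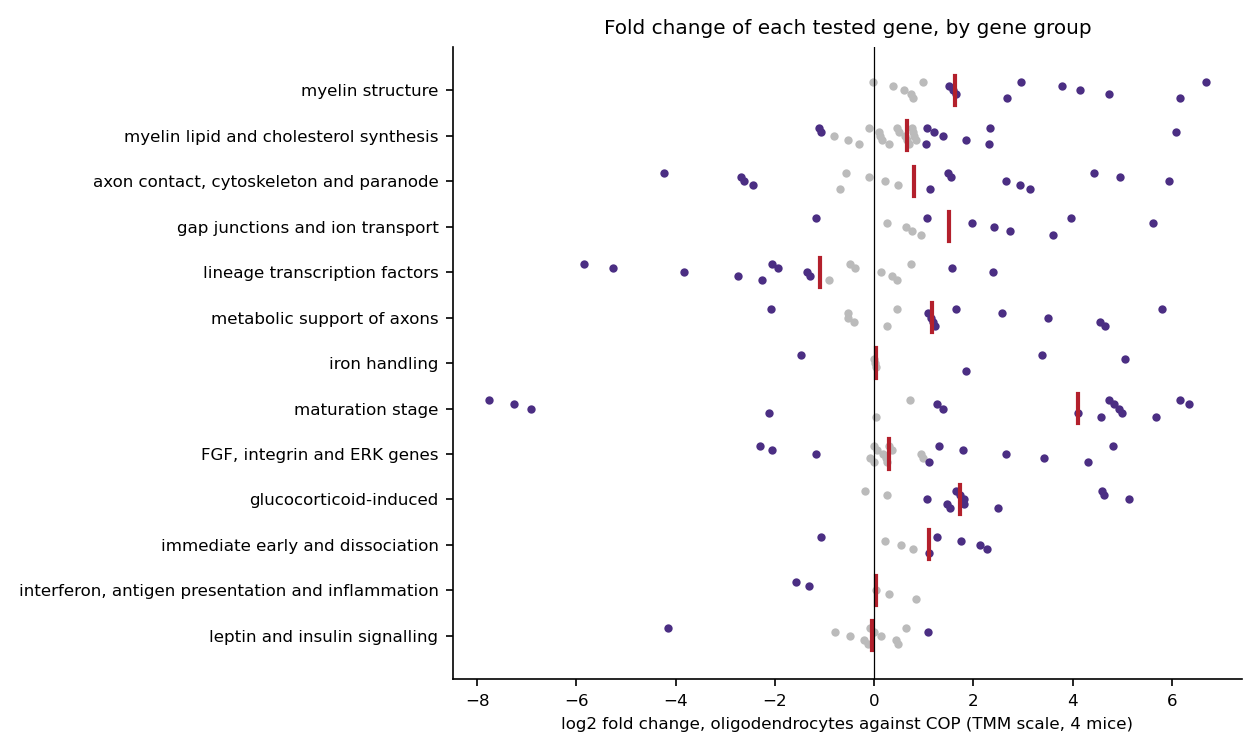
Log2 fold change of oligodendrocytes against COP (horizontal axis) for each tested gene of the 13 gene groups (vertical axis). Purple points are called genes, grey points are not called, and the red line is the median of the group, which is highest for the maturation genes at 4.11 and lowest for the lineage transcription factors at -1.10.

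Of the genes for myelin lipids and cholesterol, 8 of 27 were higher and 2 lower than in COP, with a median of 0.67, beside 13.8% higher and 13.3% lower of all tested genes. Scd2, a desaturase of fatty acids, was the most abundant at 3607 ± 339.8 CPM and 1.39 ± 0.08. Ugt8a, which makes galactosylceramide, the typical lipid of myelin, was at 681, 691, 646 and 629 CPM and had 0.67 ± 0.09 against COP and 2.66 ± 0.11 against OPC, so it was called only in the second of these. Larger values belonged to Cers2, a ceramide synthase for very long chains (2.32 ± 0.14), and Aspa, which frees acetate from N-acetylaspartate (6.08 ± 0.24, 351 ± 32.02 CPM, 8 UMIs in COP). Of the genes of cholesterol synthesis in the list, Mvd, an enzyme of the mevalonate pathway, was lower than in COP at -1.10 ± 0.29. This call depended on 1 mouse, since Mvd was at -0.96 without mouse 34. Hmgcs1, Fdps, Idi1, Fdft1, Cyp51 and Sqle were not called against COP, with values from -0.31 to 0.80. Against the mean of the other types, 21 of 28 were higher, with a median of 1.43, beside 11.1% of all tested genes. Scd1, another desaturase, was at 235, 251, 129.6 and 233 CPM and was lowest in mouse 30.

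Genes of axon contact, cytoskeleton and the paranode, where myelin loops attach to the axon, went in both directions against COP: 9 of 18 were higher and 4 lower, beside 13.8% higher and 13.3% lower of all tested genes. Those higher included the septin Sept4 (1846 ± 291 CPM, 3.13 ± 0.10), the contactin Cntn2 (5.94 ± 0.21), the septin-binding anillin Anln (4.95 ± 0.22) and Fnbp1 (4.42 ± 0.19). Cntn2 had close values in the mice, at 532, 526, 518 and 518 CPM. Those lower were Enpp6, an early marker of cells that start to make myelin (-4.24 ± 0.12), the cell adhesion gene Nfasc (-2.68 ± 0.09), the tubulin deacetylase Sirt2 (-2.63 ± 0.08) and Bcas1 (-2.45 ± 0.09). Sirt2 was at 697 CPM in oligodendrocytes and 5222 in COP, and Nfasc at 374 and 2921. Against the mean of the other types, Sirt2 and Nfasc were still higher in oligodendrocytes, at 1.29 ± 0.07 and 3.18 ± 0.10, and 17 of 18 genes of this group were, beside 11.1% of all tested genes. Tubb4a, a tubulin of oligodendrocytes, was at 1087 ± 90.6 CPM and -0.57 ± 0.08 against COP, which was not called.

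Of the genes for gap junctions and ion transport, 7 of 12 were higher than in COP and 1, the connexin Gjc3, was lower (-1.16 ± 0.08), beside 13.8% higher and 13.3% lower of all tested genes. The connexins of oligodendrocytes differed from each other: Gjb1 (connexin 32) was at 348, 289, 247 and 241 CPM with 5.63 ± 0.24 against COP and Gjc3 was at 518 ± 26.9 CPM. The sodium pump subunit Atp1b3 was at 452 ± 7.61 CPM and 2.73 ± 0.13, and the cotransporter Slc12a2 at 747 ± 58.9 CPM and 1.96 ± 0.11. The potassium channel Kcnj10, which takes up potassium, was at 414 ± 6.27 CPM and was not called against COP (0.76 ± 0.11) or OPC (0.97 ± 0.10). Kcna1, a voltage-gated potassium channel, was at 216, 259, 337 and 266 CPM, with 2.41 ± 0.15 against COP and 5.36 ± 0.12 against the other types.

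Among the lineage transcription factors, 9 of 18 were lower than in COP and 2 were higher, and the median was -1.10, beside 13.3% lower and 13.8% higher of all tested genes. Olig1, which specifies the lineage, was the most abundant at 594, 639, 605 and 585 CPM and 0.46 ± 0.09 against COP. Myrf, which drives myelin genes, was at 287, 242, 298 and 295 CPM, 0.14 ± 0.11 against COP and 4.51 ± 0.19 against OPC, so its levels in oligodendrocytes and COP lay close together. Sox10, which acts with it, was at 252 ± 30.9 CPM and was called against neither COP (-0.48 ± 0.10) nor OPC (-0.14 ± 0.10). The higher pair was Nkx6-2, a homeobox factor of mature cells (2.40 ± 0.20), and the cold shock domain protein Carhsp1 (1.57 ± 0.12). The factors that were much lower were Sox4 (-5.84 ± 0.13), Sox6, which holds back differentiation (-5.26 ± 0.16), Tcf7l2, a Wnt effector of the committed stage (-3.84 ± 0.12), Zfp488 (-2.75 ± 0.21) and Nkx2-2 (-2.26 ± 0.15). Tcf7l2 was at 47.00, 51.1, 49.4 and 50.9 CPM in oligodendrocytes and 825 in COP. Against the mean of the other types, 12 of 21 factors were higher and 5 lower, beside 11.1% and 12.1% of all tested genes, with Myrf at 5.91 ± 0.13.

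Of the genes for metabolic support of axons, 10 of 16 were higher than in COP and 1 lower, with a median of 1.17, beside 13.8% higher and 13.3% lower of all tested genes. Glul, which makes glutamine, was at 2768, 2588, 3465 and 3006 CPM and 3.50 ± 0.11. Car2, a carbonic anhydrase, was at 2296, 1957, 2057 and 1533 CPM and 5.81 ± 0.14, and the related Car14 at 4.56 ± 0.24. Slc16a1, the transporter through which oligodendrocytes pass lactate to axons, was at 57.5 ± 8.26 CPM and 2.58 ± 0.31 against COP, and was not called against the other types (0.86 ± 0.14). Ldha, which makes lactate, was at 33.6, 42.6, 117 and 31.4 CPM. Mouse 30 stood above the others for Ldha, at 3.27 times their mean. Of 7 tested iron genes, 3 were higher than in COP and 1 lower, with the same shares beside them. Trf, the iron carrier transferrin that oligodendrocytes make, was at 2820.0, 2195, 2212 and 2364 CPM, with 5.06 ± 0.12 against COP and 7.55 ± 0.15 against OPC. Fth1, the ferritin heavy chain, was at 8914, 17497, 8748 and 8058 CPM and 3.39 ± 0.09, whereas the light chain Ftl1 was at 1793 ± 186 CPM and 0.02 ± 0.08. The transferrin receptor Tfrc was at 45.7, 39.8, 103 and 41.7 CPM, highest in mouse 30.

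Of the genes that mark stages of maturation, 11 of 17 were higher than in COP and 4 lower, with a median of 4.11, beside 13.8% higher and 13.3% lower of all tested genes. Ptgds, the prostaglandin D synthase of late oligodendrocytes, was at 12332, 10427, 16817 and 17270.0 CPM and 4.94 ± 0.11 against COP, and the other high ones included Apod (4.99 ± 0.15), Il33 (4.83 ± 0.19) and Qdpr (4.11 ± 0.12). Those lower were genes of the committed stage and S100b: Bmp4 (-7.77 ± 0.24, 7 UMIs in oligodendrocytes), Neu4 (-7.26 ± 0.18), Gpr17 (-6.91 ± 0.13) and S100b (-2.12 ± 0.09). Gpr17 was at 17.7, 30.3, 22.6 and 17.3 CPM in oligodendrocytes and at 2951 CPM in COP. Among all genes with at least 50 CPM on 1 side, the largest lower folds against COP included also Tnr (-6.90) and Brca1 (-6.58), and against OPC the lower ones included the OPC markers Pdgfra (-6.35), C1ql1 (-6.50) and Cspg4 (-6.27). Against the mean of the other types, the largest higher folds were those of Hapln2 (7.51 ± 0.29), Tmem125 (7.28 ± 0.22), Tnni1 (7.12 ± 0.20), Galnt6 (7.05 ± 0.19) and Opalin (7.04 ± 0.11). Hapln2, a link protein of the nodal matrix, was at 56.1, 63.4, 53.5 and 69.4 CPM.

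Oligodendrocytes also varied among themselves. To compare cells at 1 depth, each was thinned to 600 UMIs, which left out 10 shallower oligodendrocytes in mouse 4 and 1 in mouse 30, and 10, 14, 7 and 5 astrocytes, which served as the reference for free RNA. At 600 UMIs, Opalin was found in 40.2, 30.99, 33.3 and 36.1% of oligodendrocytes and 0.563, 0.426, 0.199 and 0.321% of astrocytes. Unthinned, its share was 45.8% to 63.1% over the mice. Il33 was found in 21.5, 16.3, 15.5 and 17.4% of oligodendrocytes, Apod in 38.6% ± 3.98 (SD, n = 4), Car2 in 63.9% ± 5.96 and Cryab in 71.7% ± 6.74. Astrocytes of mouse 3 had Il33 in 4.38%, Apod in 0.884%, Car2 in 7.15% and Cryab in 10.2% of cells. Of the 20 maturation genes, 15 had a higher share in oligodendrocytes than in astrocytes in 4 of 4 mice, by a difference of any size. Such shares were not computed for all genes, so nothing is read from this count. Anxa5 did not have a higher share, at 4.02% ± 0.897 in oligodendrocytes against 8.58% ± 0.822 in astrocytes. Nor did S100b, which in mouse 3 was in 25.4% of oligodendrocytes and 33.8% of astrocytes. Ptgds was in 85.5, 83.4, 93.9 and 94.3% of oligodendrocytes, but also in 7.27, 16.6, 49.4 and 14.3% of astrocytes, so that its share in mouse 30 was high in astrocytes too.

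Klk6, a secreted protease that marks part of the mature oligodendrocytes, was sparse and set some cells apart. At 600 UMIs it was found in 3.00, 2.22, 1.06 and 0.833% of oligodendrocytes and in at most 0.0402% of astrocytes, and unthinned in 1.69% to 5.88% of oligodendrocytes. Its level was 79.8, 66.3, 18.5 and 24.4 CPM, higher in mice 3 and 4 than in mice 30 and 34. Cells with Klk6 were seldom cells with Opalin: 11 cells had both, where the product of the shares within each mouse gives 32.3, a ratio of 0.340. The ratio was below 1 in each of the 4 mice, at 0.299, 0.509, 0.601 and 0.213. All ratios by mouse in this paragraph rest on 50, 19, 5 and 13 cells with Klk6. Those of mice 30 and 34 thus come from few cells, for the genes below as well. For Ptgds, 30 cells had both where 75.5 were expected (0.397), with 0.421, 0.316, 0.639 and 0.326 in the 4 mice. S100b went the other way, with 53 cells against 20.9 (2.53), and so did Apod with 56 against 34.2 (1.64), both in 4 of 4 mice. Anxa5 had 13 cells against 3.27. Car2 was near the product of the shares, with 58 cells against 57.7. These ratios describe cells of 4 libraries and carry no test.

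Klk6 also differed between the authors' clusters. Of 181 oligodendrocytes with a Klk6 UMI before thinning, 162 (89.5%) were in clusters 10, 16, 29 and 33, which held 1834 cells, or 40.2% of all oligodendrocytes. These 4 were picked for their Klk6 level over the pooled mice. Pooled over the mice, cluster 10 had 107 CPM of Klk6, 3445 of Ptgds and 587 of Opalin, and cluster 16 had 156 CPM of Klk6, 9207 of Ptgds and 1152 of Opalin. Clusters 20 and 28 had 5.63 CPM of Klk6, 33842 of Ptgds and 1262 of Opalin, and 4.58 CPM of Klk6, 61855 of Ptgds and 1316 of Opalin. Cluster 15 had 5.88 CPM of Klk6, 9863 of Ptgds and 755 of Opalin. The level of a cluster in Klk6 thus did not order its Ptgds and Opalin, since cluster 16 was close to cluster 15 in Ptgds and above it in Opalin. By mouse, Klk6 was at 133, 90.5, 21.5 and 91.3 CPM in cluster 10 and at 199, 127, 30.3 and 110.0 in cluster 16. In cluster 29 it was at 38.3, 74.7, 119 and 10.9. Of these, cluster 16 was the highest in mice 3, 4 and 34. All oligodendrocytes of mouse 30 held only 9 Klk6 UMIs, in 8 cells, so no order of clusters is read from mouse 30. Mice 3 and 4 gave most cells of cluster 16. Cluster 10 held 27.3%, 27.9%, 17.97% and 12.4% of the oligodendrocytes of mice 3, 4, 30 and 34. How the authors drew these clusters is not given in the sources used here, and a cluster drawn on expression is no test of its own genes.

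**Figure D3:**
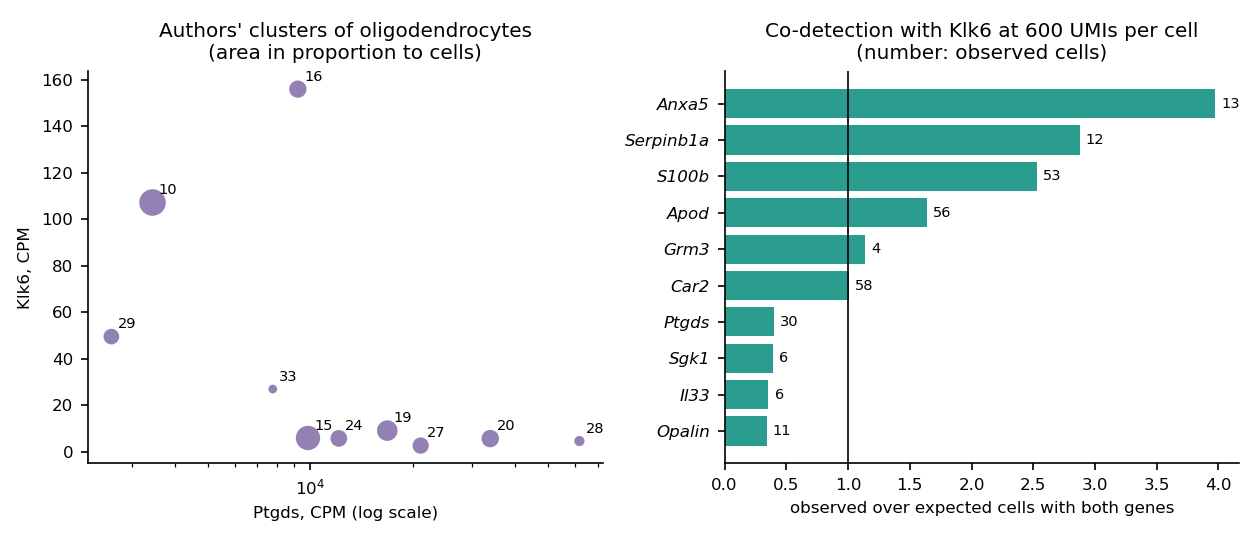
Left, Klk6 (CPM) against Ptgds (CPM, log axis) in the authors' clusters of oligodendrocytes with at least 100 cells, with areas in proportion to cells. Right, cells with both Klk6 and another gene over the number expected from their shares, at 600 UMIs per cell, for genes with at least 3 expected cells; the line at 1 is the product of the shares, and Anxa5 and Serpinb1a lie above it while Opalin, Il33 and Ptgds lie below.

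The genes of the pathway that FGF1 R50E addresses were present in oligodendrocytes at unequal levels. CPM of UMIs are not divided by gene length, and whether capture was alike between genes was not tested. Of the FGF receptors, Fgfr2 was at 232, 205, 198 and 239 CPM, Fgfr3 at 55.6, 92.8, 98.8 and 60.2 and Fgfr1 at 18.1, 28.4, 12.3 and 19.5. Fgfr2 was the highest of the 3 in each mouse. Its level was higher than in COP (4.31 ± 0.22), OPC (5.43 ± 0.25) and the mean of the other types (3.94 ± 0.11), in 4 of 4 mice each. Fgfr1 was lower than in OPC (-1.55 ± 0.22), and Fgfr3 was not called against OPC (-0.30 ± 0.15). Fgf1 itself, the mouse gene of the ligand, was at 117, 109, 96.7 and 120.3 CPM in oligodendrocytes, with 3.42 ± 0.25 against COP and 2.05 ± 0.11 against the other types. Of the integrin subunits, Itgav was at 144 ± 22.7 CPM, Itgb8 at 127 ± 17.2, Itgb1 at 79.9 ± 6.79 and Itgb3, the partner of Itgav to which FGF1 binds, at 3.02, 0, 4.11 and 2.17 CPM from 13 UMIs in all.

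Downstream, the kinase gene Mapk3 (ERK1) was at 209 ± 6.26 CPM and 2.39 ± 0.16 against OPC. The transcription factor Etv1 was the most abundant gene of the list, at 631, 509, 541 and 536 CPM, with 4.81 ± 0.17 against COP, 2.13 ± 0.11 against OPC and 4.14 ± 0.08 against the others. Its relatives Etv5 and Etv4, which ERK signalling induces, were lower than in OPC, at -3.77 ± 0.17 and -5.50 ± 0.33. So were the feedback inhibitors Spry1 (-2.97 ± 0.22), Spry4 (-5.34 ± 0.38) and Dusp6 (-3.36 ± 0.32), and the cyclin Ccnd1 (-4.38 ± 0.14). Spry2 was lower than in OPC (-1.12 ± 0.14) but higher than in COP (2.66 ± 0.29), at 74.6, 28.4, 59.7 and 78.04 CPM, lowest in mouse 4. In the whole list, 7 of 21 genes were higher and 3 lower than in COP (median 0.30), beside 13.8% and 13.3% of all tested genes. There were 4 of 27 higher and 11 lower than in OPC (median -0.44), beside 12.8% and 15.2%, and 7 of 33 higher and 4 lower than the other types (median 0.06), beside 11.1% and 12.1%. Of the leptin and insulin signalling genes, 1 of 12 was higher than in COP, Foxo1 (1.08 ± 0.32), and 1 lower, Irs1, an adaptor of the insulin receptor (-4.15 ± 0.26, 4.73 CPM against 102 in COP), no larger a share than the 13.8% and 13.3% of all tested genes. Without mouse 30 Foxo1 was at 0.95, under the limit of 1. Against OPC, the 11 genes tested lay between -0.57 for Akt1 and 0.50 for Jak2, all under that limit. The leptin receptor Lepr had 10 UMIs in all oligodendrocytes.

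Immediate early and stress genes, which dissociation of tissue is known to induce, were lower in oligodendrocytes than in the mean of the other types for 12 of 14 genes, with a median of -1.81, beside 12.1% of all tested genes. Fos was at 246, 216, 212 and 308 CPM (-1.75 ± 0.16), Egr1 at 73.2 ± 19.7 (-2.01 ± 0.19) and Junb at 4.31, 18.9, 24.7 and 14.6 (-2.73 ± 0.35). Against COP the direction was the other for 5 of 9, among them Fos (1.75 ± 0.14) and Jund (2.28 ± 0.27), and 1 of 9, Nr4a1, was lower (-1.08 ± 0.24), beside 13.8% higher and 13.3% lower of all. Genes of interferon response, antigen presentation and inflammation were lower than in the other types for 17 of 21, with a median of -1.92, beside 12.1% of all tested genes, among them B2m, the light chain of MHC class I (117 ± 24.6 CPM, -1.44 ± 0.15), H2-K1 (-1.92 ± 0.18) and Irf1 (-3.30 ± 0.46).

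In mouse 30, some of these genes were nevertheless higher than in the oligodendrocytes of the other mice. Of the 16 genes of this inflammation list with at least 20 UMIs in oligodendrocytes, 14 had their highest CPM in mouse 30, beside 34.6% of all 10433 genes with as many UMIs. As this list was chosen with earlier results of these data known, the count is a description and no independent support. Cxcl10, a chemokine that interferon induces, was at 0.431, 0, 74.1 and 0 CPM and Ccl2, a chemokine for monocytes, at 3.45, 3.79, 78.2 and 1.63 CPM. Cxcl10 was found in 22 of 473 oligodendrocytes of mouse 30 (4.65%), from 36 UMIs with at most 8 in a cell, in 1 of 1668 in mouse 3 and in 0 of 865 and 0 of 1560 in mice 4 and 34, which allows shares of cells with a UMI, not of cells that express the gene, of up to 0.347% and 0.192%. In the same mouse, 7 of 161 COP (4.35%), 12 of 267 OPC (4.49%), 40 of 509 astrocytes (7.86%) and 36 of 95 microglia (37.9%) had a Cxcl10 UMI, so the share in oligodendrocytes was close to those in COP and OPC and below those in astrocytes and microglia. Ccl2 was found in 32 of 473 oligodendrocytes of mouse 30 (6.77%). In the other mice it was found in 3 or 4 oligodendrocytes each, and in astrocytes of mouse 30 its share was 7.27%. Whether free RNA of other cells gave these UMIs was not tested.

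Among the more abundant genes, oligodendrocytes differed most between the mice in Sgk1. Of 1405 genes with at least 100 CPM over the pooled oligodendrocytes, the 12 with the largest gene-wise dispersion were Sgk1, Gm10076, Cnot3, Gstp1, Meg3, Vps8, Rpl10-ps3, Rpl9-ps6, Rpl13, Cdc42ep2, Klf9 and Hist1h1c, in this order. Mouse 4 had the highest value for 5 of them, mouse 30 for 4, mouse 3 for 3 and mouse 34 for none, beside 19.6%, 22.8%, 42.6% and 14.9% of the 1405 genes. The genes highest in mouse 4 were Gm10076 (101, 489, 86.4 and 159.9 CPM), Gstp1, a glutathione transferase (86.7, 342, 94.6 and 159), Vps8, of endosomal transport (276, 985, 784 and 365), the ribosomal gene Rpl13 (342, 829, 372 and 311) and the linker histone Hist1h1c (79.3, 196, 154 and 87.3). The same mouse was high in other types as well: Rpl13 in mouse 4 was 2.43 times the mean of the other mice in oligodendrocytes and 2.47 to 2.97 times in the other types, Gm10076 was 4.22 times in oligodendrocytes and 3.53 to 4.67 times elsewhere, and Vps8 was 2.07 times and 1.86 to 2.45 times. Fth1 behaved alike, at 2.04 times and 1.74 to 2.43 times. For Vps8, however, mice 4 and 30 were both above mice 3 and 34 in every type compared. In astrocytes it was at 285, 1039, 1007 and 328 CPM. The ratios for mouse 4 do not show this split. In oligodendrocytes the same pairs parted alike for Cnot3, Meg3 and Hist1h1c, and by smaller margins for Klf9 and Rpl13. Rpl10-ps3, Rpl9-ps6 and Cdc42ep2 were lower in mice 4 and 30. Sgk1, Gm10076 and Gstp1 did not divide the mice this way. The source of the split was not tested. Gm10076, Rpl10-ps3 and Rpl9-ps6 are copies of expressed genes, so the reads that they share with those genes make their counts uncertain.

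**Figure D4:**
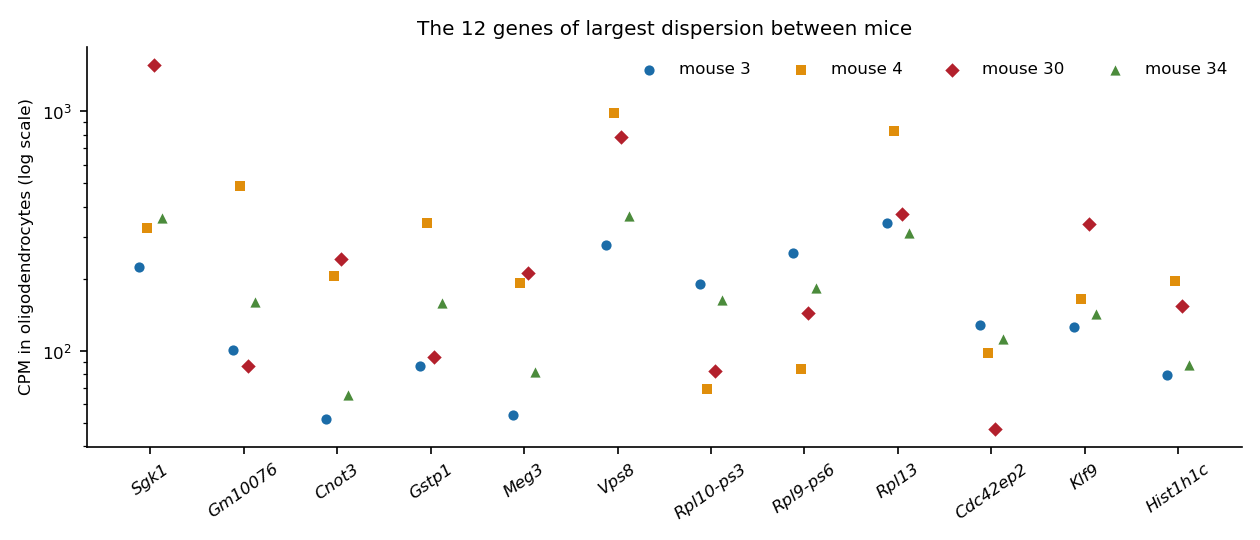
CPM in oligodendrocytes (log axis) of the 12 genes with the largest dispersion between mice, from left to right in order of dispersion, with 1 symbol per mouse. Sgk1 in mouse 30 stands at 1559.5 CPM, above the 225 to 359.8 CPM of the other mice.

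Sgk1, a kinase that glucocorticoids and insulin induce and that acts on ion transport, was at 225, 326, 1559.5 and 359.8 CPM in oligodendrocytes. Mouse 30 was 5.14 times the mean of the other mice. The neighbouring stages did not share this, with 1.01 times in COP, at 594, 570.4, 603 and 634 CPM, and 1.35 times in OPC, while astrocytes had 2.82 times and tanycytes 2.68 times and microglia 0.235 times. Within oligodendrocytes the excess held across clusters: in 8 of the 8 authors' clusters with at least 20 cells in every mouse, Sgk1 was highest in mouse 30, at 1116 to 1790 CPM, against 102 to 281 in mouse 3, 261 to 458 in mouse 4 and 321 to 400 in mouse 34. At 600 UMIs per cell, 12.6, 18.1, 59.7 and 18.8% of oligodendrocytes and 0.603, 0.567, 1.99 and 0.735% of astrocytes had a Sgk1 UMI, and unthinned the shares of oligodendrocytes were 25.8% to 74.8%. Against the mean of the other types, the log2 fold change of Sgk1 was 2.45 ± 0.16 with all mice and 1.88 without mouse 30, and against COP it was -0.18 ± 0.16 and -0.74 with neither called, the second because of its size.

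**Figure D5:**
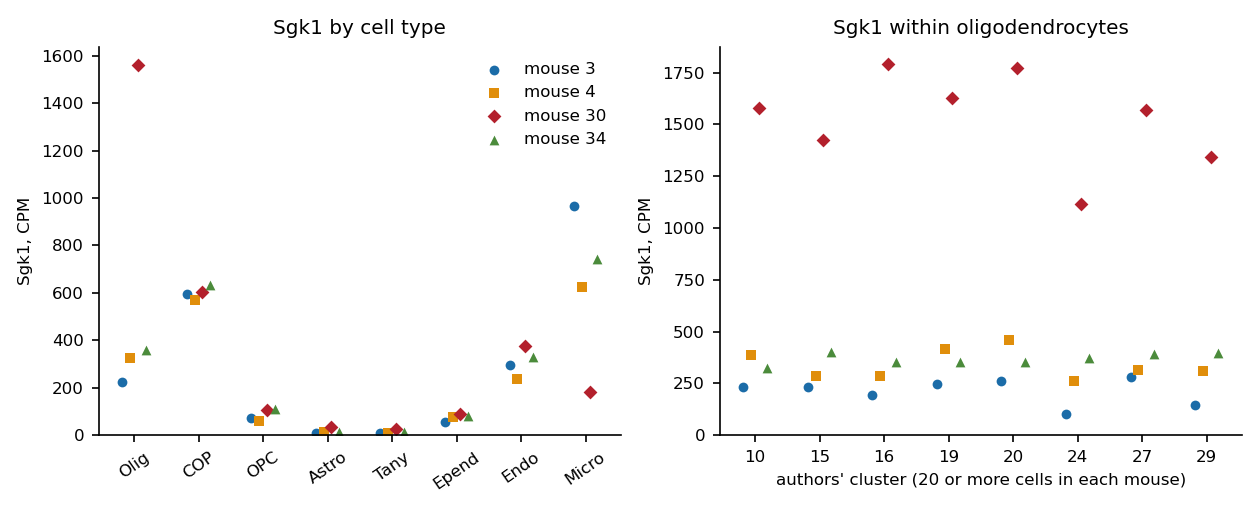
Sgk1 in CPM, by cell type (left) and in the authors' clusters of oligodendrocytes (right), with 1 symbol per mouse and axes from 0. Mouse 30 is the highest in oligodendrocytes and in each of the 8 clusters, and lies among the other mice in COP.

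Some other genes that glucocorticoids induce were also highest in mouse 30. Of the 15 genes of this list other than Sgk1, each with at least 20 UMIs, 11 (73.3%) were highest in mouse 30, beside 34.6% of all genes with as many UMIs. The list was chosen with earlier results of these data known, so this count is a description and no independent support. Klf9, a transcription factor, was at 125, 165, 339 and 143 CPM, Ddit4, an inhibitor of mTOR, at 45.3, 75.8, 158 and 72.1, Nfkbia, an inhibitor of NF-kappaB, at 36.2, 52.1, 163 and 43.4, the cell cycle inhibitor Cdkn1a at 9.05, 9.47, 65.8 and 27.1 and Fkbp5, a chaperone of the glucocorticoid receptor, at 17.2, 17.05, 49.4 and 18.97. For each of these 5, mouse 30 was above the other 3 mice. Mouse 30 was high for them in other cell types too, though not in all: Nfkbia was 3.70 times the mean of the other mice in oligodendrocytes, 3.16 times in OPC, 4.35 in astrocytes, 16.4 in tanycytes and 18.3 in ependymal cells. Fkbp5 was 2.78 times in oligodendrocytes, 1.49 in OPC and 1.74 in astrocytes, and highest at 3.71 in endothelial and 4.76 in ependymal cells. Ddit4 was 2.46 times in oligodendrocytes and 2.13 in OPC, Cdkn1a 4.33 and 2.06, and Klf9 2.35 and 1.53. In ependymal cells Ddit4 was 0.938 times and Cdkn1a 1.30 times. In COP the ratios of Klf9, Ddit4, Nfkbia, Cdkn1a and Fkbp5 were 0.956, 0.919, 1.10, 2.00 and 1.91. In microglia the ratios of these 5 genes in the same order were 2.34, 3.19, 0.853, 3.76 and 2.10. Plin4, a coat protein of lipid droplets, was at 31.05, 22.7, 119 and 64.5 CPM, while COP had 2 UMIs of it in all. Not all members followed: Tsc22d3 was at 257, 193, 206 and 242 CPM and Per1 at 15.95, 16.1, 16.5 and 17.3. The receptor gene Nr3c1 was at 143, 153, 132 and 134. Against COP, 11 of 13 tested genes of the list were higher in oligodendrocytes, with a median of 1.73, beside 13.8% of all tested genes. In mouse 30 the haemoglobin gene Hbb-bs was also higher in the oligodendrocyte sum, at 58.6, 46.4, 288 and 84.00 CPM, the library had the fewest oligodendrocytes, and chemokine genes were higher as given above. Their part in the Sgk1 values was not tested.

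The promoter of Sgk1 is shown since it had the largest dispersion of the 1405 genes with at least 100 CPM. A further reason is that 1 of its windows carries the letters of the glucocorticoid response element. The element was searched as GNACANNNTGTNC, which reads the same on both strands, and it was found in 156 of 32851 windows (0.475%) and for 0.537% of 27025 genes, and in the glucocorticoid list for 2 of 14 genes with a window, Sgk1 and Mt1. For Sgk1, 1 of 6 windows had it, and the match is in capitals.
Sgk1, chr10:21993640-21993939, plus strand: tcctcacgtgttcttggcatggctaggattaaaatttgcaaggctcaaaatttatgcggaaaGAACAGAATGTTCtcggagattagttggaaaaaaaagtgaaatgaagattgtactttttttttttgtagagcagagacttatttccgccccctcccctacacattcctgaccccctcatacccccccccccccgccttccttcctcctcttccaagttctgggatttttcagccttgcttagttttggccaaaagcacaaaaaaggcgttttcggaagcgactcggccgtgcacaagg
The data hold no measurement of binding at this window.

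The split of calls by direction depended on the scaling. With trimmed means (TMM), the 1683 genes called against COP were 855 higher and 828 lower, and with library totals alone, a setting chosen after the data were seen, 1824 were called, 636 higher and 1188 lower, since the median of all genes moved to -0.27. Against OPC, the 1820 called genes were 831 higher and 989 lower, and by totals 2126 were called, 588 higher and 1538 lower, with a median of -0.42. Against the other types, 2360 were called, 1128 higher and 1232 lower, and by totals 2621, 848 higher and 1773 lower, with a median of -0.30, and by DESeq2 2768, 977 higher and 1791 lower. These shifts of the median apply to every log2 fold change of the same contrast.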

How the data were processed

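Hypothalamic tissue was dissociated with a neural tissue kit and sequenced as 10x 3' v2 libraries on a NextSeq 500, with 1 mouse per library. The submitters' processing notes name Cell Ranger 1.2, Seurat, GRCm38, mm10 and GRCh38, without saying what each was used for. The paper at hand does not describe these mice, so nothing on processing was taken from it. The UMI counts were deposited as whole numbers per gene and cell for 16411 genes, and 15217 genes were detected here. The deposited cell table gave for each cell the authors' type label, cluster number, mitochondrial percent, a doublet score (a fraction, as deposited by the authors) and a silhouette score, which the authors deposited without a description. How the labels were made is not given in the sources used here. Cells deposited had at least 487 UMIs and at most 20.0% mitochondrial UMIs. The table also held 50172 cells of 12 libraries outside the labelled samples, and corrected counts made across all 16 libraries, which were not used here.

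Counts were summed per mouse and type and compared with edgeR 4.0.16 (quasi-likelihood F test, TMM, filterByExpr, mouse as a block, Benjamini-Hochberg) in R 4.3.3. The block stands for the animal, since the compared types came from the same mice. SEs were derived from the F statistic. This fit was first tested on simulated data, where fold changes were known. CPM used the full total of each sum. Cells were processed with Python 3.11.15 and pandas 2.3.3. No further doublet removal was done, and an alternative kept the 90% of cells per mouse with the lowest doublet scores. Intervals are exact binomial (scipy 1.17.1) and cover counting error only, as does the limit of 3 counts for a share of 0. The edgeR p-values and SEs rest on how the difference between types varied over these 4 mice, not on the spread of levels between mice. The estimate of that spread borrows from other genes. Against the other types it is shared by the sums of all 8 types.

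The named genes were, in each of 13 lists, up to 8 members of highest mean CPM and up to 3 of largest fold change each way, the 12 genes of largest dispersion among those with at least 100 CPM, and the 10 of largest fold change each way among those with at least 50 CPM, from which this text gives a selection. Folds with 3 or fewer UMIs on 1 side were not printed. The members and lists were chosen with earlier results of these data known. Alternatives were RLE scaling, DESeq2 1.42.0, no filter, no block, thinned sums, other cell filters and leaving out each mouse. Some genes count in the totals of the lists and are not reported here by name.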

Additional observations from a re-analysis of the deposited data

Results flagged for a closer look

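Of 143 values of named genes in oligodendrocytes, 8 (5.59%) had 1 mouse set far from the other 3, by the gap to the nearest mouse over the whole range, where chance alone gives about 1 in 20 for genes not chosen for their spread. The named genes include the 12 chosen for the largest dispersion between mice, among them Sgk1 and Rpl13, so that rate is no yardstick for them. Mouse 30 was the mouse apart for 5 of them, mouse 4 for 2 and mouse 3 for 1. In mouse 30, Sgk1 was high at 1560 CPM, Ccl2 at 78.2 CPM, the transferrin receptor Tfrc at 103 CPM and the integrin subunit Itgb8 at 152 CPM, where the other mice had 117 to 118 CPM. The desaturase Scd1 was low in mouse 30 at 130 CPM. Tfrc in mouse 30 was 2.43 times the mean of the other mice in oligodendrocytes. In mouse 4, Fth1 was high at 17497 CPM and Rpl13 at 829 CPM, and both were also high in the other cell types of that mouse. The early gene Btg2 was low in mouse 3 at 19.4 CPM, against 28.8 to 30.3 CPM in the others.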

How the results depend on the processing

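No called value of a named gene changed its direction under any alternative that was run. The number of genes called against COP was 1683 and became 2594 without the filter on low counts and 1008 with sums thinned to equal totals. Against OPC it was 1820, and 3054 and 1180 under the same alternatives. Against the other types it was 2360, and 341 with thinned sums, where only 1380 genes could be tested. Leaving out each mouse in turn gave 1545 to 2098 calls against COP, 1799 to 2318 against OPC and 2094 to 2440 against the other types, with the highest count each time without mouse 30. Without the replicate block, which pairs types of the same mouse, the counts were 1685, 1826 and 2315. The share of oligodendrocytes among all cells, 22.3%, was 31.7% without the most abundant other type of each mouse in the denominator (astrocytes in mice 3, 4 and 34, tanycytes in mouse 30) and 20.7% to 24.5% with 1 mouse left out, and the share within the lineage 64.2% to 72.2%. Of the 12 most variable genes, 8 to 11 were shared with the list under other totals or with deeper cells, and 6 to 11 with 1 mouse left out. The next counts cover single genes of the lists, single per-cell measures, named levels and the overlap of the 12 genes. Of these values, 6940 counted as unchanged, 124 were called only under the alternative, 160 only in the main setting and 135 moved. Unchanged means that a called gene stayed called, and that other values stayed close by a set rule. Depth limits the lowest genes: the sums held 208955 to 498365 UMIs per mouse in COP and 44756 to 133441 in microglia, the lowest of the 7 other types compared.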
